A study of Mus musculus with 12 samples.

Results

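The theca and stromal marker genes Cyp17a1, Insl3, Aldh1a1, Acta2, Tagln, Col1a1, Col1a2, Col3a1, Dcn and Lum were followed through 12 libraries of mouse cumulus cells. They were chosen by name, as a guide to theca and stroma among the collected cells, and make up 10 of the 23997 rows of the table. All 10 names were found. RNA came from C57BL/6J females that either lacked the mitochondrial protease subunit ClpP (ClpP-/-, here KO) or were wild type (WT), at 3 or 6 months of age. There were 3 libraries in each of the 4 groups, numbered 1 to 3 by the labels, and each was made from 100 cumulus cells of 1 mouse. All mice, controls included, were injected with pregnant mare serum gonadotropin (5 IU) to drive follicle growth. The cumulus-oocyte complexes were released by puncturing the ovary 44 h later by one label and 48 h later by another. A mouse is therefore represented by few cells, and the cells were freed from an ovary that also holds theca, interstitial tissue, vessels and blood.

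Cumulus cells are granulosa-lineage cells that enclose the oocyte inside the follicle. Theca cells lie outside the basement membrane of the follicle, where the inner layer responds to luteinizing hormone, makes androgens through CYP17A1 and secretes the peptide INSL3. Granulosa cells have little CYP17A1 of their own and turn the androgens from theca into estrogens. The outer theca contains contractile, smooth-muscle-like cells with ACTA2 and TAGLN, and both the theca and the interstitial stroma lay down fibrillar collagens and the small proteoglycans decorin and lumican. A library made of cumulus cells alone would thus be low in most of these transcripts by textbook knowledge.

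Values are FPKM, fragments scaled to transcript length and to library size, so they can be compared between genes. The targeted gene Clpp stood at 88.2 to 146 FPKM in the 6 WT libraries and at 0.769 to 6.63 FPKM in the 6 KO libraries. The cumulus and granulosa hormone subunit Inha was high in every library, at 2419 to 6334 FPKM. Several libraries stood apart before any marker was compared. Small RNA entries took 37.45% of all FPKM in KO library 3 at 6 months, 31.97% in KO library 3 at 3 months and 25.67% in WT library 1 at 3 months, against 0.26% to 6.81% in the others. The spacing of low values put relative sequencing depth between 0.64 and 1.0 of the deepest library. Library 3 of the 6-month WT group and library 3 of both KO groups were also high in leukocyte markers, as given further on, and each comparison of KO with WT below is given with and without these 3 libraries. They also had the 3 highest sums of the theca and stromal markers, so leaving them out is not independent of the marker levels.

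The markers were low in most libraries and very high in a pair of them. Their sum over the 10 genes was 31.1, 11.4 and 224 FPKM in 3-month WT libraries 1 to 3, and 151, 5.15 and 2185 FPKM in the 3-month KO libraries. At 6 months the sums were 53.6, 25 and 358 FPKM in WT and 27.0, 155 and 2748 FPKM in KO. Library 3 had the highest sum in each group, and library 3 of both KO groups lay far above the other 10 libraries. Even there the markers made up 0.216% of the FPKM sum at 3 months and 0.201% at 6 months, or 0.318% and 0.321% with small RNAs left out. The number of markers at 1 FPKM or more ran from 1 of 10 in 3-month KO library 2 to 10 of 10 in 6-month KO library 3. In bulk RNA, more cells of a type and more RNA per cell cannot be told apart.

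**Figure D1:**
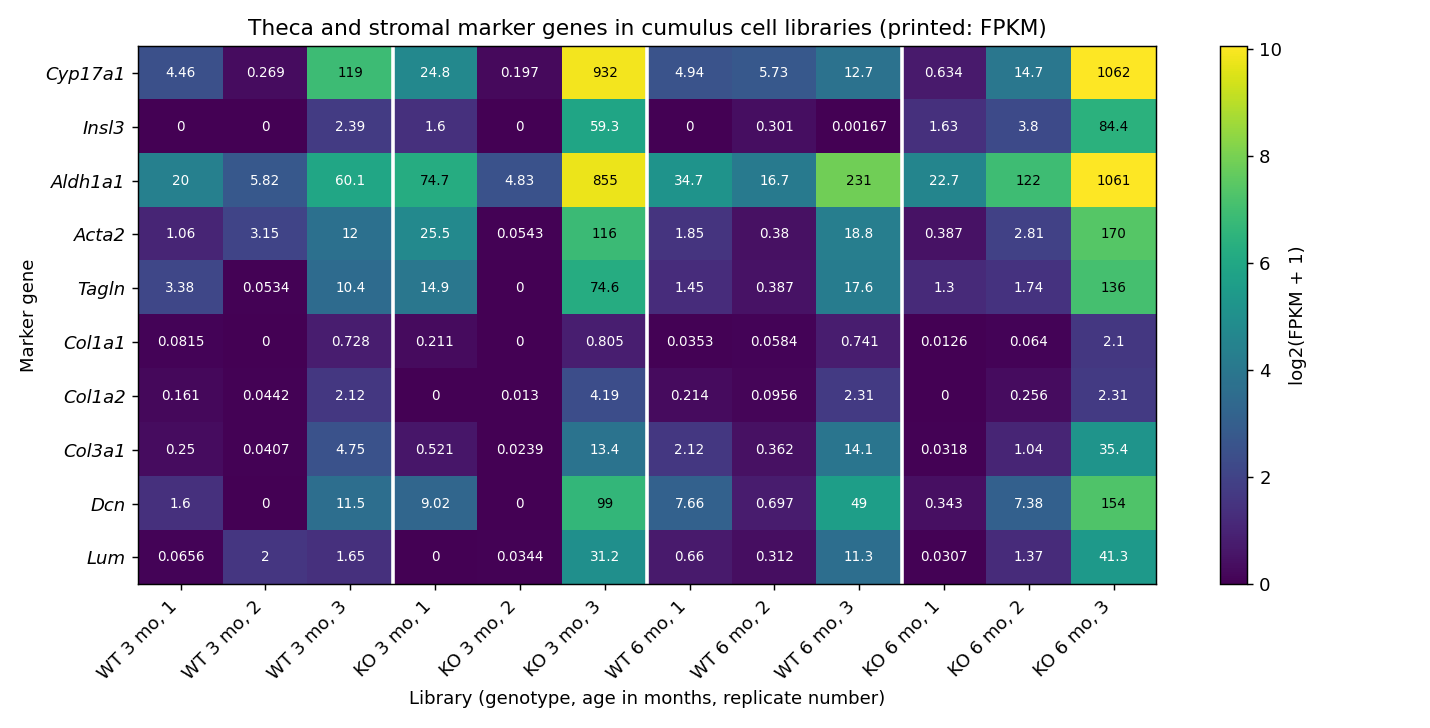
Level of each of the 10 marker genes (rows) in each of the 12 libraries (columns, named by genotype, age in months and replicate number). Colour is log2(FPKM + 1) and the printed numbers are FPKM. Library 3 of the 3-month and of the 6-month KO group carries the brightest column, with Cyp17a1 at 932 and 1062 FPKM.

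Cyp17a1, the steroid hydroxylase and lyase that makes androgens in theca, lies on the minus strand at chr19:46667165-46673172 (GRCm38). In 3-month WT libraries 1 to 3 it stood at 4.46, 0.269 and 119 FPKM (mean 41.1 ± 67.2, SD, n = 3), and in 3-month KO at 24.8, 0.197 and 932 FPKM (319 ± 531, SD, n = 3). At 6 months it stood at 4.94, 5.73 and 12.7 FPKM in WT (7.78 ± 4.26, SD, n = 3) and at 0.634, 14.7 and 1062 FPKM in KO (359 ± 609, SD, n = 3). Library 3 was the highest of its group each time, but the KO and WT values overlapped at both ages. The gap within a group was wide. Library 3 was 26.6 times the next highest library in 3-month WT, 37.6 times in 3-month KO and 72.1 times in 6-month KO, and 2.21 times in 6-month WT. The SD exceeded the mean in 3 of the 4 groups, so the group means of Cyp17a1 rest on a single library in each of them. Set against Inha of the same library, Cyp17a1 was 0.36 of its level at 3 months and 0.305 at 6 months in KO library 3, and at most 0.0205 in the other libraries where it reached 1 FPKM.

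Insl3, the insulin-like peptide hormone of theca and Leydig cells, lies at chr8:71689214-71690575 (plus strand). It was listed at 0 in 3-month WT libraries 1 and 2 and stood at 2.39 FPKM in library 3, and in 3-month KO it stood at 1.6, 0 and 59.3 FPKM. At 6 months it was 0, 0.301 and 0.00167 FPKM in WT and 1.63, 3.8 and 84.4 FPKM in KO. The 6-month groups did not overlap, since each KO library lay above each WT library, whereas the 3-month groups did. Insl3 was at 0 in 4 libraries, more than any other of the 10 markers, and reached 1 FPKM in 6. Among these 6 the 3-month WT library 3 was the only WT library, so Insl3 passed the filter for testing through KO libraries. Where both genes reached 1 FPKM, Insl3 was 0.0202 to 0.258 of Cyp17a1, and in library 3 of the KO groups the ratio was 0.0636 and 0.0795. The 6-month WT library 3 had Cyp17a1 at 12.7 FPKM with Insl3 almost at 0.

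Insl3 shares sequence with a neighbour. The last exon of 1 Jak3 transcript covers the second exon of Insl3 on the same strand, and 60.11% of the 549 stretches of 75 bases in Insl3, the read length, are also found in Jak3 (chr8:71676296-71690575). Jak3 itself was listed at 0 to 0.819 FPKM in the 12 libraries and at 0 in 6-month KO library 3, where Insl3 was highest. For Tagln, 53.3% of such stretches are shared, nearly all with Gm48529, a gene annotated on the opposite strand and not analysed here, and the labels do not say whether counting used strand. Aldh1a1 shared 1.01% of its stretches with Aldh1a7, Col3a1 0.67% and Col1a2 0.02% with other genes, and the remaining 5 markers shared none.

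Aldh1a1, an aldehyde dehydrogenase that makes retinoic acid from retinal, lies at chr19:20492715-20643465 (plus strand). It stood at 20, 5.82 and 60.1 FPKM in 3-month WT and at 74.7, 4.83 and 855 FPKM in 3-month KO. At 6 months it stood at 34.7, 16.7 and 231 FPKM in WT and at 22.7, 122 and 1061 FPKM in KO. It was the only marker at 1 FPKM or more in all 12 libraries, and the highest of the 10 in 9 of them. Its lowest value, 4.83 FPKM, was in the same 3-month KO library 2 where Cyp17a1, Acta2, Tagln and Col3a1 were lowest. The ratio of Aldh1a1 to Cyp17a1 was 0.918 and 0.999 in KO library 3 of the younger and older mice, but 18.3 in WT library 3 of the older mice.

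Promoter windows were looked up because several markers were high in the same libraries. RefSeq promoter entries (GRCm38.p6) were matched for 5 of the 10 markers, Insl3, Aldh1a1, Acta2, Col1a2 and Col3a1, with 6 windows of 250 bases before the transcription start. The window was searched for AAGGTC on both strands (GACCTT on the other). These letters are the core of the site recognised by NR5A1, the nuclear receptor that drives steroidogenic genes, and overlap the half-site letters of other nuclear receptors. They were found in 2 of the 6 windows, those of Insl3 and of the first Aldh1a1 start, and 10.6% of all 32851 promoter windows hold them. The stretches shown lie before any annotated exon of their own gene, chr8:71689002-71689213 for Insl3 (212 bases, inside the span of Jak3), chr19:20492333-20492582 for Aldh1a1 and chr1:45311288-45311537 for the collagen gene Col3a1, which has no match and is shown for comparison. Exons of other genes, Jak3 included, were not checked. Capitals mark the matched letters, 136 and 90 bases before the start in Insl3 and 127 bases before it in Aldh1a1.
Insl3: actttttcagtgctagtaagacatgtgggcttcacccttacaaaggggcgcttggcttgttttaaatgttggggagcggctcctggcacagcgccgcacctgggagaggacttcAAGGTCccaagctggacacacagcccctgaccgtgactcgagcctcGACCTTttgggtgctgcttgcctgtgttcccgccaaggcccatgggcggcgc
Aldh1a1: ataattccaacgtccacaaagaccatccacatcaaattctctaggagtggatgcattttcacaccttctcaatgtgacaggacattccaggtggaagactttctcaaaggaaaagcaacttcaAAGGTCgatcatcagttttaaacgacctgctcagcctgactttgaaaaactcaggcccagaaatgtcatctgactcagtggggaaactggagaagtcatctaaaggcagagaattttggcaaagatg
Col3a1: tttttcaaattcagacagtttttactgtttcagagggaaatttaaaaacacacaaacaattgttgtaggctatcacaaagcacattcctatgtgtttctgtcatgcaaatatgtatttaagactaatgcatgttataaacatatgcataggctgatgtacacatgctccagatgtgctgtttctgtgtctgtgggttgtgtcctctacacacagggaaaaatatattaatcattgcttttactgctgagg
A match is a run of letters and not a shown binding site. Nr5a1 transcripts themselves stood at 6.87 to 25.9 FPKM in all 12 libraries, with 24.5 and 19.9 FPKM in the KO libraries numbered 3, where Insl3 and Aldh1a1 were highest, and lowest in 6-month WT library 3.

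Acta2, the smooth muscle alpha-actin, lies at chr19:34241090-34255590 (minus strand). It stood at 1.06, 3.15 and 12 FPKM in 3-month WT and at 25.5, 0.0543 and 116 FPKM in 3-month KO. At 6 months it stood at 1.85, 0.38 and 18.8 FPKM in WT and at 0.387, 2.81 and 170 FPKM in KO. Library 3 was the highest in each group and the groups overlapped at both ages, since KO library 2 had the lowest value of all at 3 months, and at 6 months KO library 1 lay below 2 of the 3 WT libraries. Tagln, the actin-binding protein transgelin of the same cells (chr9:45929619-45936058, minus strand), stood at 3.38, 0.0534 and 10.4 FPKM in 3-month WT and at 14.9, 0 and 74.6 FPKM in 3-month KO. At 6 months Tagln stood at 1.45, 0.387 and 17.6 FPKM in WT and at 1.3, 1.74 and 136 FPKM in KO. In the 8 libraries where both reached 1 FPKM, Tagln was 0.583 to 3.19 of Acta2, and 0.583 to 0.938 of it in 7 of them.

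The fibrillar collagens were the lowest of the markers. Col1a1, the alpha-1 chain of type I collagen (chr11:94936224-94953042, plus strand), stood at 0.0815, 0 and 0.728 FPKM in 3-month WT, 0.211, 0 and 0.805 FPKM in 3-month KO, 0.0353, 0.0584 and 0.741 FPKM in 6-month WT and 0.0126, 0.064 and 2.1 FPKM in 6-month KO. It reached 1 FPKM in 1 library and was not tested for that reason. Col1a2, the alpha-2 chain of the same collagen (chr6:4504814-4541544, plus strand), stood at 0.161, 0.0442 and 2.12 FPKM in 3-month WT and at 0, 0.013 and 4.19 FPKM in 3-month KO. At 6 months Col1a2 stood at 0.214, 0.0956 and 2.31 FPKM in WT and at 0, 0.256 and 2.31 FPKM in KO. All 4 of its values of 1 FPKM or more were in library 3 of a group, and at 6 months library 3 stood at the same level in both genotypes. Col3a1, the type III collagen chain of loose connective tissue (chr1:45311538-45349706, plus strand), stood at 0.25, 0.0407 and 4.75 FPKM in 3-month WT and at 0.521, 0.0239 and 13.4 FPKM in 3-month KO. At 6 months Col3a1 stood at 2.12, 0.362 and 14.1 FPKM in WT and at 0.0318, 1.04 and 35.4 FPKM in KO. It was the only marker for which a WT library, 6-month library 3, exceeded a library 3 of the KO groups.

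Dcn, the small proteoglycan decorin that binds collagen fibrils, lies at chr10:97479609-97518143 (plus strand). It stood at 1.6, 0 and 11.5 FPKM in 3-month WT and at 9.02, 0 and 99 FPKM in 3-month KO. At 6 months it stood at 7.66, 0.697 and 49 FPKM in WT and at 0.343, 7.38 and 154 FPKM in KO. Lum, the related proteoglycan lumican (chr10:97565128-97572703, plus strand), was lower, at 0.0656, 2.0 and 1.65 FPKM in 3-month WT, 0, 0.0344 and 31.2 FPKM in 3-month KO, 0.66, 0.312 and 11.3 FPKM in 6-month WT and 0.0307, 1.37 and 41.3 FPKM in 6-month KO. KO and WT values overlapped at both ages for both genes. In 5 libraries where both reached 1 FPKM, Lum was 0.143 to 0.315 of Dcn. Lum was also the only marker that was not highest in library 3 of the 3-month WT group.

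**Figure D2:**
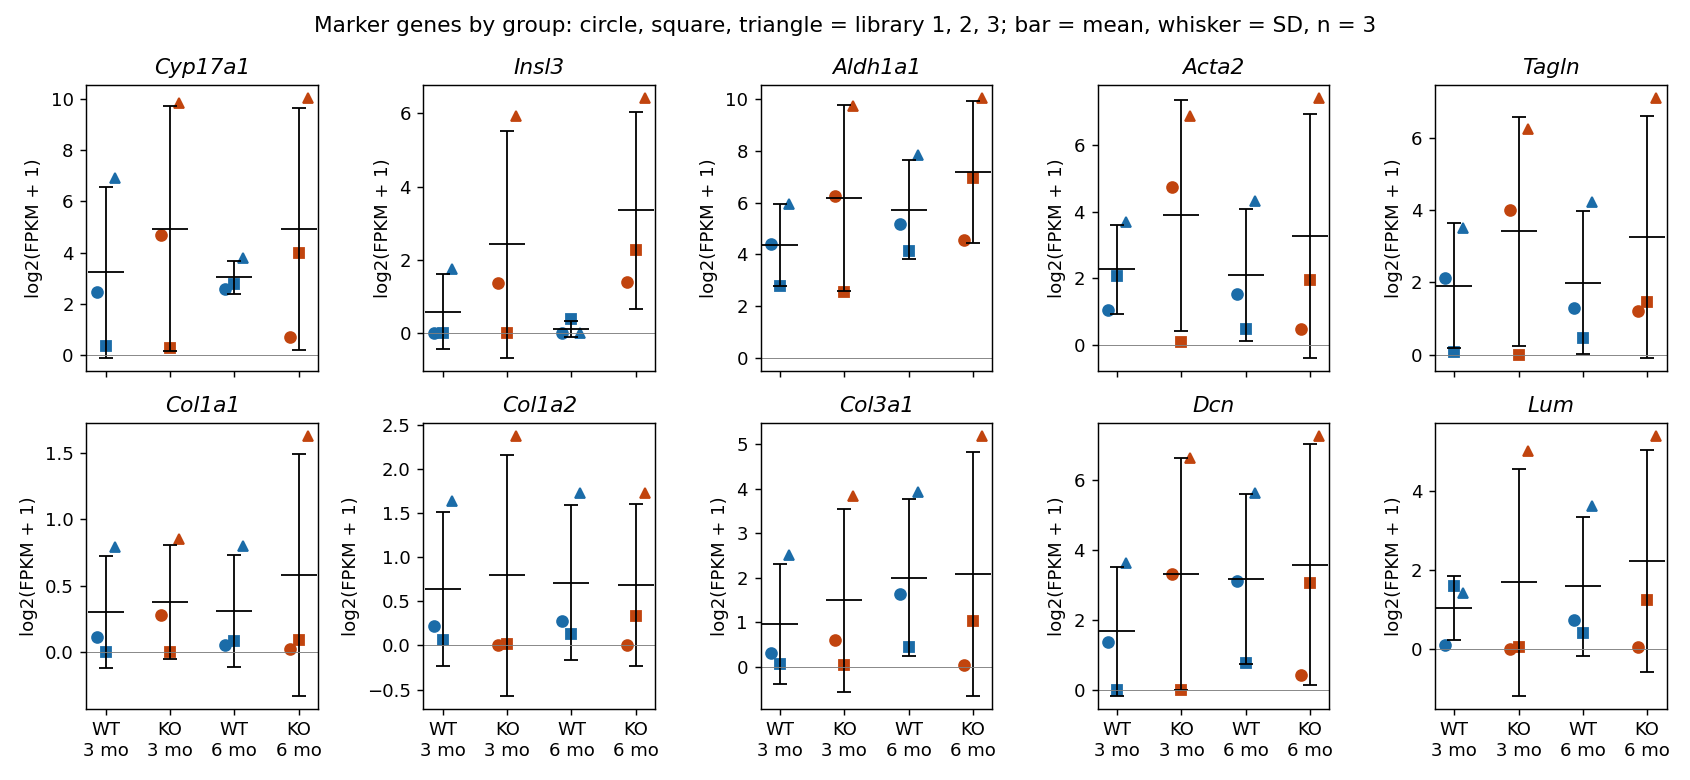
Each panel plots 1 marker gene, with log2(FPKM + 1) on the y axis and the 4 groups on the x axis. Circles, squares and triangles are libraries 1, 2 and 3, the bar is the mean of the log2 values and the whisker the SD (n = 3). Triangles lie above the other libraries of their group in all panels except Lum at 3 months in WT and Insl3 at 6 months in WT.

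Across the 10 markers the same libraries were high. Library 3 was the highest of its group for 9 of 10 markers in 3-month WT, 10 in 3-month KO, 9 in 6-month WT and 10 in 6-month KO, while library 3 was the highest for 36.6%, 41.5%, 44.6% and 44.4% of the 11194 tested genes. Both library 3 values of the KO groups lay above the other 10 libraries for 9 of 10 markers, the exception being Col3a1, and for 10.2% of the tested genes. With libraries scaled to equal medians the count was 7 of 10. The 6-month KO library 3 was the highest of all 12 for 9 markers, and for Col1a2 the highest was 3-month KO library 3. At the other end, 3-month KO library 2 had a median rank of 11.5 of 12, and the 3-month WT library 2 had one of 10.5. KO libraries thus held both the highest and the lowest summed marker level of the series.

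The theca and stromal markers did not keep one ratio. In 3-month WT library 3 and in library 3 of both KO groups Cyp17a1 exceeded Dcn by 10.3, 9.41 and 6.92 times. In the 6-month WT libraries 1 and 3 Cyp17a1 was 0.644 and 0.258 of Dcn, and in the remaining 3 libraries where both reached 1 FPKM the ratio was 2.0 to 2.78. The 6-month WT library 3 had ranks 2 to 4 of 12 for 8 of the 10 markers, the stromal and contractile ones and Aldh1a1. Its rank was 6 for Cyp17a1 and 8 for Insl3, and the split rests on these genes alone. Col1a1 ranked high there at only 0.741 FPKM. The ratios of Cyp17a1 to Dcn in single libraries have no replicate.

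**Figure D3:**
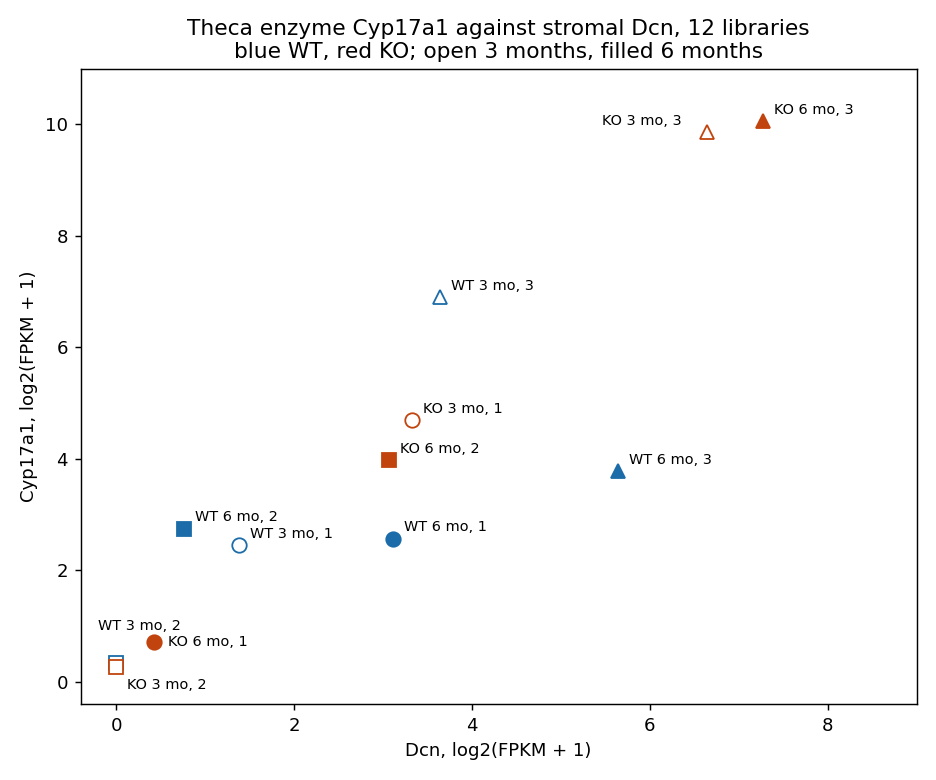
Cyp17a1 on the y axis against Dcn on the x axis, both as log2(FPKM + 1), with 1 point per library, labelled. Library 3 of both KO groups sits at the upper right, and 6-month WT library 3, with Dcn at 49 FPKM and Cyp17a1 at 12.7 FPKM, lies below the other libraries high in Dcn.

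The title of the study concerns ClpP and reproductive aging, and the comparison made here is whether the marker levels differed between genotypes and ages. At 3 months 9 of the 9 tested markers were higher in KO than in WT by the fitted difference, from 0.16 for Col1a2 to 1.84 for Insl3 on the log2(FPKM + 1) scale, with a median of 1.62 against 0.01 over all tested genes, of which 51.2% lay above 0. Of the 9 none passed limma with Benjamini-Hochberg adjustment (adjusted p from 0.814 to 0.982), and none had an unadjusted p under 0.05. Of all tested genes 0.00893% passed the adjusted threshold and 6.8% had an unadjusted p under 0.05. Groups did not overlap for 0 of the markers and for 10.2% of all tested genes. The standard errors of the markers ran from 0.73 to 2.54, where the median gene had 0.41. Cyp17a1 differed by 1.70 (SE 2.54, 95% interval -3.84 to 7.25, limma adjusted p = 0.9, n = 3 per group), Insl3 by 1.84 (SE 1.44, interval -1.29 to 4.98), Aldh1a1 by 1.81 (SE 1.74, interval -1.99 to 5.61) and Acta2 by 1.62 (SE 1.89, interval -2.49 to 5.74). Dcn differed by 1.65 (SE 1.92), Tagln by 1.51 (SE 1.79), Lum by 0.66 (SE 1.52) and Col3a1 by 0.53 (SE 1.39). An interval this wide includes both no difference and differences of many times.

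The size and sign of the differences at 3 months moved with single libraries of both genotypes. Leaving out KO library 2, where Cyp17a1, Acta2 and Tagln were lowest, raised Cyp17a1 to 4.04 and Dcn to 3.31, and leaving out WT library 3 raised them to 3.54 and 2.63. Leaving out WT library 2 lowered Cyp17a1 to 0.26 and Dcn to 0.81, and leaving out KO library 3 brought 5 of 9 markers below 0. Aldh1a1 had an unadjusted p of 0.0475 by limma without KO library 2, and no marker passed the adjusted threshold whichever library was left out. At 3 months the 3 libraries high in leukocyte markers include KO library 3 alone. Without them Cyp17a1 was lower in KO by the fitted value, at -0.76 (SE 1.87), as were Lum at -1.0 (SE 0.51), Col3a1 at -0.65, Col1a2 at -0.63 and Dcn at -0.01. The other 4 markers lay between 0.03 for Aldh1a1 and 0.14 for Acta2. The 3 libraries left out also had the highest marker sums, 2185 and 2748 FPKM in KO and 358 FPKM in 6-month WT. At 3 months the highest KO library was thus dropped and WT library 3, at 224 FPKM, was kept. The fall of the KO minus WT values at 3 months was therefore fixed beforehand. No marker passed limma without these libraries either, and the smallest Benjamini-Hochberg adjusted p was 0.409, for Lum.

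At 6 months 8 of the 9 tested markers were higher in KO by the fitted difference, with a median of 1.18 against 0.01 over all tested genes, of which 51.5% lay above 0. None passed limma with Benjamini-Hochberg adjustment (adjusted p = 1.0 for each), where 0.0268% of all tested genes did. Insl3 had the largest difference, 3.23 on the log2(FPKM + 1) scale (SE 1.44, 95% interval 0.10 to 6.37, unadjusted p = 0.0443 by limma, adjusted p = 1.0), and was higher in 3 of 3 KO libraries than in any WT library. It was the only marker with an unadjusted p under 0.05 or without overlap of the groups, and over all tested genes these shares were 1.22% and 6.8%. Because Insl3 passed the filter through KO libraries, where it is high, its KO against WT tests are not independent of that filter. Cyp17a1 differed by 1.88 (SE 2.54, interval -3.66 to 7.43) and Aldh1a1 by 1.47 (SE 1.74). The contractile genes differed by 1.18 (Acta2, SE 1.89) and 1.26 (Tagln, SE 1.79), and Lum by 0.65 (SE 1.52). The other stromal genes were closer to 0, with Dcn at 0.41 (SE 1.92), Col3a1 at 0.08 (SE 1.39) and Col1a2 at -0.03 (SE 0.73).

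At 6 months single libraries also moved the values. Without KO library 1 the differences of the 9 markers ran from 0.32 to 4.21, without WT library 3 from 0.48 to 3.17, and without KO library 3 from -1.47 to 1.70 with 7 of 9 below 0. Insl3 stayed above 0 without each library in turn, with an unadjusted p by limma from 0.0112 to 0.212. Leaving out the 3 libraries turned the sign of 3 markers, with Cyp17a1 at -0.32 (SE 2.04), Dcn at -0.19 and Col3a1 at -0.51. Insl3 kept its direction at 1.64 (SE 0.68, unadjusted p = 0.0379 by limma, adjusted p = 1.0), on KO values of 1.63 and 3.8 FPKM against WT values of 0 and 0.301 FPKM. These are low values, and without counts their counting error is unknown. Averaged over both ages Insl3 was 2.54 higher in KO (SE 1.02, unadjusted p = 0.0283 by limma, adjusted p = 0.783). In the average 9 of 9 markers lay above 0 (51.1% of all tested genes), none passed limma with Benjamini-Hochberg adjustment, and 0.0179% of all tested genes did. Insl3 alone had an unadjusted p under 0.05, a share of 5.96% over all tested genes. With the replicate number as a block 3 markers had one, against 8.59% of all tested genes. These were Insl3 (unadjusted p = 0.00361 by limma, adjusted p = 0.544), Aldh1a1 (unadjusted p = 0.028, adjusted p = 0.548) and Tagln (unadjusted p = 0.032, adjusted p = 0.55). The labels do not tie equal replicate numbers to an animal, litter or day, so the block has no stated basis and is only an alternative fit. Without the 3 libraries high in leukocyte markers the average lay below 0 for 5 of 9 markers, Col3a1 at -0.58, Cyp17a1 at -0.54, Lum at -0.46, Col1a2 at -0.34 and Dcn at -0.1. The other 4 were Insl3 at 0.87 (SE 0.46), Aldh1a1 at 0.56, Tagln at 0.27 and Acta2 at 0.18.

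A change of the genotype difference with age was not detectable in these libraries. In the interaction none of the 9 markers passed limma with Benjamini-Hochberg adjustment (adjusted p = 1.0 for each; 0.00893% of all tested genes passed) and none had an unadjusted p under 0.05 (2.0% of all tested genes). The differences ran from -1.23 for Dcn (SE 2.71) to 1.39 for Insl3 (SE 2.03), and 2 of 9 lay above 0 (50.9% of all tested genes). That count turned on single libraries. Without KO library 3 at 3 months 9 of 9 lay above 0, with Insl3 at 3.13 and Cyp17a1 at 2.64, and without KO library 3 at 6 months 0 of 9 did, with Dcn at -3.08 and Acta2 at -2.52. From 3 to 6 months in WT the markers ran from -0.46 for Insl3 to 1.5 for Dcn, 6 of 9 above 0 (51.9% of all tested genes), with a median of 0.09 against 0.03 over all tested genes. None passed limma with Benjamini-Hochberg adjustment (adjusted p from 0.884 to 0.991), where 0.00893% of all tested genes did, and none had an unadjusted p under 0.05 (7.44% of all). From 3 to 6 months in KO they ran from -0.62 for Acta2 to 1.01 for Aldh1a1, 5 of 9 above 0 (50.8% of all tested genes), with a median of 0.27 against 0.01. None passed there (limma adjusted p from 0.909 to 0.998), where 0.0179% of all did, and none had an unadjusted p under 0.05 (6.48% of all). In KO without the 3-month library 3 the age differences were above 0 for 9 of 9 markers, with Aldh1a1 at 2.80, Insl3 at 2.67 (unadjusted p = 0.046 by limma, adjusted p = 0.418) and Cyp17a1 at 2.44. Without the 6-month KO library 3 they were below 0 for 9 of 9, with Acta2 at -2.69 and Cyp17a1 at -2.59, and leaving out 3-month KO library 2 also put 9 of 9 below 0. In WT 9 of 9 were above 0 without 3-month library 3 and 3 of 9 without 6-month library 3. In KO no marker kept 1 direction with age when libraries were left out in turn. Groups overlapped for every marker in both age comparisons, while 15.7% of tested genes in WT and 12.8% in KO did not overlap.

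**Figure D4:**
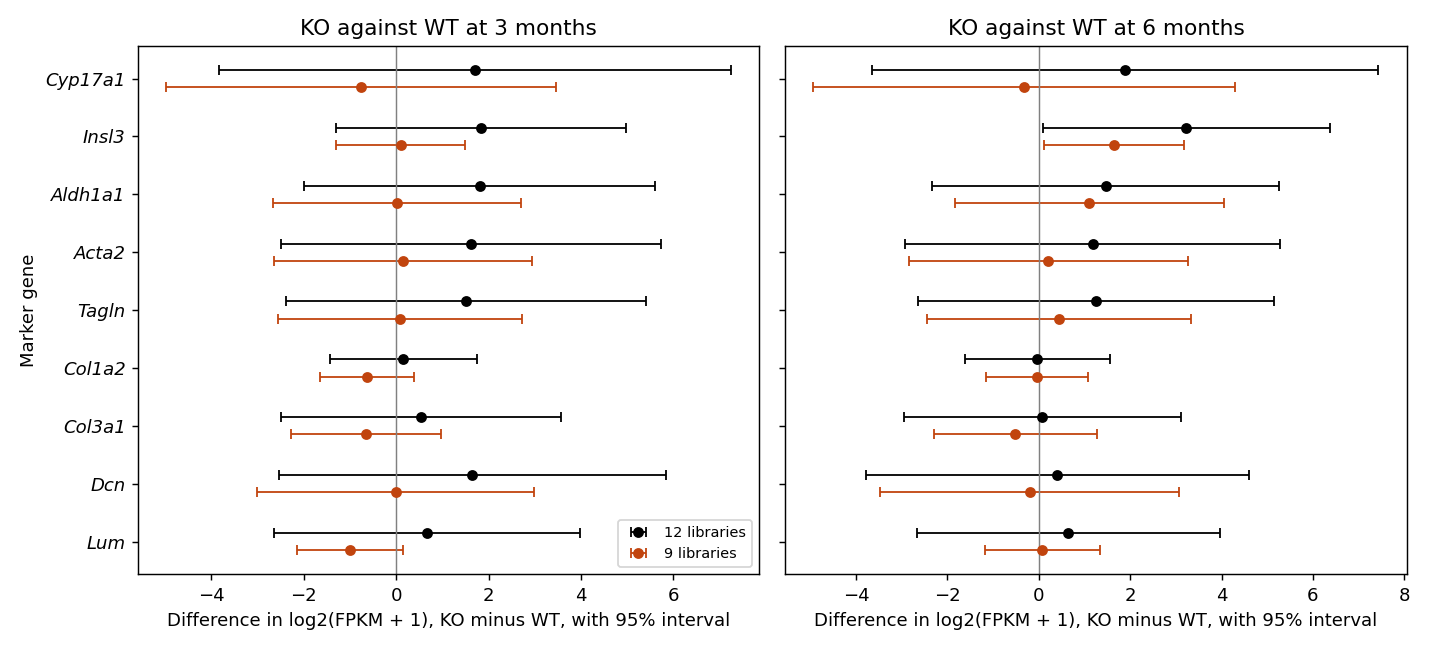
Fitted KO minus WT difference in log2(FPKM + 1) for the 9 tested markers at 3 months (left) and 6 months (right), with 95% intervals from limma. Black uses all 12 libraries and red the 9 left without the 3 high in leukocyte markers. Of the 18 black intervals 17 include 0, the exception being Insl3 at 6 months, and the red value of Cyp17a1 lies below 0 at both ages.

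The other genes of steroid synthesis were read beside Cyp17a1. None of the 13 listed genes, all tested, passed in any comparison. In this and the following lists, genes are counted whose values in library 3 of both KO groups lay above or below those of the other 10 libraries, as did 10.2% (above) and 7.73% (below) of all tested genes. Cyp11a1, which makes pregnenolone from cholesterol, stood at 63.4, 42.4 and 547 FPKM in 3-month WT, 724, 2.46 and 5942 FPKM in 3-month KO, 63.3, 24.3 and 695 FPKM in 6-month WT and 5.0, 175 and 7989 FPKM in 6-month KO, again highest in library 3 of both KO groups. Its electron donor Fdx1 reached 4257 and 9153 FPKM in those libraries and 121 to 1676 FPKM elsewhere. Both library 3 values of the KO groups were above the other 10 libraries for 5 of the 13 genes (Star, Cyp11a1, Fdx1, Fdxr and Scarb1) and below them for 1, close to the 7.73% of all tested genes. That gene was Hsd17b1, the granulosa enzyme that makes estradiol, at 170 and 196 FPKM against 623 to 1256 FPKM. The cytochrome b5 gene Cyb5a, which aids the lyase step of CYP17A1, did not follow Cyp17a1, with 2412 and 3235 FPKM in library 3 of the KO groups and its highest values, 8848 and 9186 FPKM, in library 3 of the WT groups. Lhcgr, the luteinizing hormone receptor, was singled out after its values were seen. It stood at 34.5, 97.2, 151 and 206 FPKM in library 3 of 3-month WT, 3-month KO, 6-month WT and 6-month KO, and at 0.164 to 12.1 FPKM in the other 8 libraries.

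The signals that theca precursors answer to were measured as well. The hedgehog ligands made by granulosa cells were present, with Ihh at 8.23 to 87.0 FPKM and Dhh at 3.75 to 22.4 FPKM, and their transducer Smo at 1.48 to 8.95 FPKM. The responding genes Ptch1 and Gli1, singled out as the pathway's readout after their values were seen, stayed under 1 FPKM in every library, at up to 0.61 and 0.552 FPKM. Of the 11 hedgehog genes 4 were tested and none passed. Rxfp2, the receptor for INSL3, reached at most 0.245 FPKM, and Insl6, a relative of Insl3, stood at 1.67 to 50.4 FPKM with its highest value in 6-month WT library 3. None of the 3 tested genes of that family passed, Insl3 among them.

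Among 14 retinoid genes 7 were tested and none passed. Crabp2, a retinoic acid carrier, was low where Aldh1a1 was high, with 11.4 and 41.5 FPKM in the KO libraries numbered 3 and 180 to 678 FPKM in the other 10 libraries. Aldh1a7, the near copy of Aldh1a1, showed no such split, at 9.35 and 11.2 FPKM there and 2.77 to 23.7 FPKM elsewhere.

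Other contractile genes were high in the same libraries as Acta2 and Tagln. Myl9, the smooth muscle myosin light chain, reached 140 and 159 FPKM in the KO libraries numbered 3 and 0 to 22.4 FPKM elsewhere, and Actg2, the gamma-actin of smooth muscle, 33.7 and 61.3 FPKM against 0 to 9.88 FPKM. Tpm1, a tropomyosin that cumulus libraries also held, stood at 163 and 219 FPKM against 42.6 to 100.0 FPKM. Of 13 such genes both library 3 values of the KO groups were above the other libraries for 8 and below them for 1 (Myocd), and none of the 10 tested passed. Pericyte markers were low in most libraries, and none of 7 reached 1 FPKM in the 3 libraries needed to be tested. In 6-month KO library 3, however, 4 of the 7 reached 1 FPKM. Rgs5 was at 2.84 and 4.84 FPKM in KO library 3 at the 2 ages and at most 0.769 FPKM elsewhere. Of the 7 markers 3 (Rgs5, Pdgfrb and Notch3) were highest in library 3 of both KO groups and 0 lowest.

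Genes that modify and process collagen differed widely in level. Of the 16 listed genes, all tested, none passed. Ppib, P4hb and Serpinh1, which fold and hydroxylate procollagen, had the highest means of the list and were present in all libraries at 245 to 551, 123 to 592 and 26.7 to 98.7 FPKM, while Col1a1 reached 2.1 FPKM at most. The crosslinking oxidase Lox stood at 0 to 2.47 FPKM and the procollagen proteinase Bmp1 at 2.11 to 7.79 FPKM. Both library 3 values of the KO groups were above the other libraries for 2 of the 16 genes, Pcolce and Bmp1, and below them for 2, P4ha1 and Serpinh1, near the shares of all tested genes. Pcolce, a secreted enhancer of procollagen processing, stood at 87.9 and 241 FPKM there against 0.553 to 43.6 FPKM elsewhere. Among 18 other matrix genes 8 were highest in those libraries and 1 lowest, with Mgp at 228 and 439 FPKM against 4.98 to 82.4 FPKM and Sparc at 161 and 266 FPKM against 6.04 to 118 FPKM. The exception was Fbln1, at 12.8 and 12.4 FPKM against 13.1 to 47.1 FPKM. None of the 9 tested passed. Of the relatives of Dcn and Lum, Ogn stood at 31.8 and 46.5 FPKM in those libraries and 0.66 to 13.9 FPKM elsewhere, Bgn at 17.1 and 8.53 FPKM against 0 to 6.93 FPKM, and Omd at 18.5 to 59.0 FPKM with no such split. None of the 3 tested passed. Tcf21, a transcription factor of ovarian interstitial and theca cells, stood at 17.4 and 57.1 FPKM there, at 5.87 FPKM in 6-month WT library 3 and at 0 to 3.3 FPKM in the others. Of the 10 fibroblast markers 3 (Pdgfra, Tcf21 and Cd34) were highest in library 3 of both KO groups and 0 lowest. Vim and Mfap5, with higher means, showed no such split. Vim stood at 122 FPKM in 3-month WT library 1 and 107 FPKM in 3-month KO library 3. Mfap5 stood at 5.25 and 11.8 FPKM in the KO libraries numbered 3 and at 23.8 FPKM in 6-month WT library 3. None of the 5 tested fibroblast markers passed.

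Markers of some other cells were high in the same libraries as the theca and stromal markers, but red blood cell and surface epithelium markers followed other orders. Both library 3 values of the KO groups were above the other 10 libraries for 6 of 12 leukocyte and 0 of 7 red blood cell markers. The same held for 3 of 10 endothelial, 7 of 11 oocyte and 1 of 9 surface epithelium markers. In each of these lists 0 markers were lowest there. The summed level of 12 leukocyte markers ran from 10.6 to 25.5 FPKM in the 3-month WT group, 4.19 to 264 FPKM in 3-month KO, 10.7 to 487 FPKM in 6-month WT and 17.1 to 1426 FPKM in 6-month KO, with library 3 at the top of each. Lyz2, Cd74 and C1qb led the list. In KO library 3 of the younger mice 11 of the 12 reached 1 FPKM, in that of the older mice 12, and in WT library 3 of the older mice 9, with none of the 12 at 0 in these 3 libraries. The pan-leukocyte marker Ptprc stood at 0.153, 2.56 and 2.67 FPKM in the same order. Red blood cell markers, 7 in all and led by Hbb-b1, summed to 874, 677 and 1398 FPKM in library 3 of 3-month WT, 3-month KO and 6-month WT, but to 28.0 FPKM in 6-month KO library 3, where 9 of the 10 theca and stromal markers were highest. The 10 endothelial markers summed to 39.5 and 57.1 FPKM in library 3 of the KO groups against 4.18 to 23.5 FPKM, and 11 oocyte markers to 62.3 and 274 FPKM against 1.35 to 17.5 FPKM. Most of the endothelial sums came from Egfl7 (21.6 and 14.7 FPKM) and Emcn (13.4 and 32.6 FPKM). The endothelial genes highest in both libraries were Tek, Flt1 and Emcn. Egfl7 also stood at 18.9 FPKM in 3-month KO library 1, where Pecam1 was highest at 1.07 FPKM. The 9 surface epithelium markers summed to 21.9 to 257 FPKM, with the highest sum in 3-month WT library 2, where Krt8 (197 FPKM) and Krt18 (52.2 FPKM) made up nearly all of it and 5 of the 9 were at 0. As the mean of centred log2 values, where 0 is the average library, the same list was highest in 6-month WT library 1 at 1.96 and library 3 at 1.36, followed by the KO libraries numbered 3 at 1.34 (6 months) and 1.11 (3 months), against 0.04 or less in the other 8. Of 12 granulosa and cumulus markers 3, Fshr, Gja1 and Fst, were lowest in library 3 of both KO groups, with Fst, the activin-binding protein follistatin, at 31.5 and 48.3 FPKM against 186 to 649 FPKM, and 1, Slc18a2, was highest there, where 7.73% and 10.2% of all tested genes were lowest and highest. Inha in those libraries stood at 2590.2 and 3479.8 FPKM, inside the range of the others. No gene of these lists passed limma with Benjamini-Hochberg adjustment in any of the 6 comparisons. The part of these other cells in the marker levels was not tested.

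**Figure D5:**
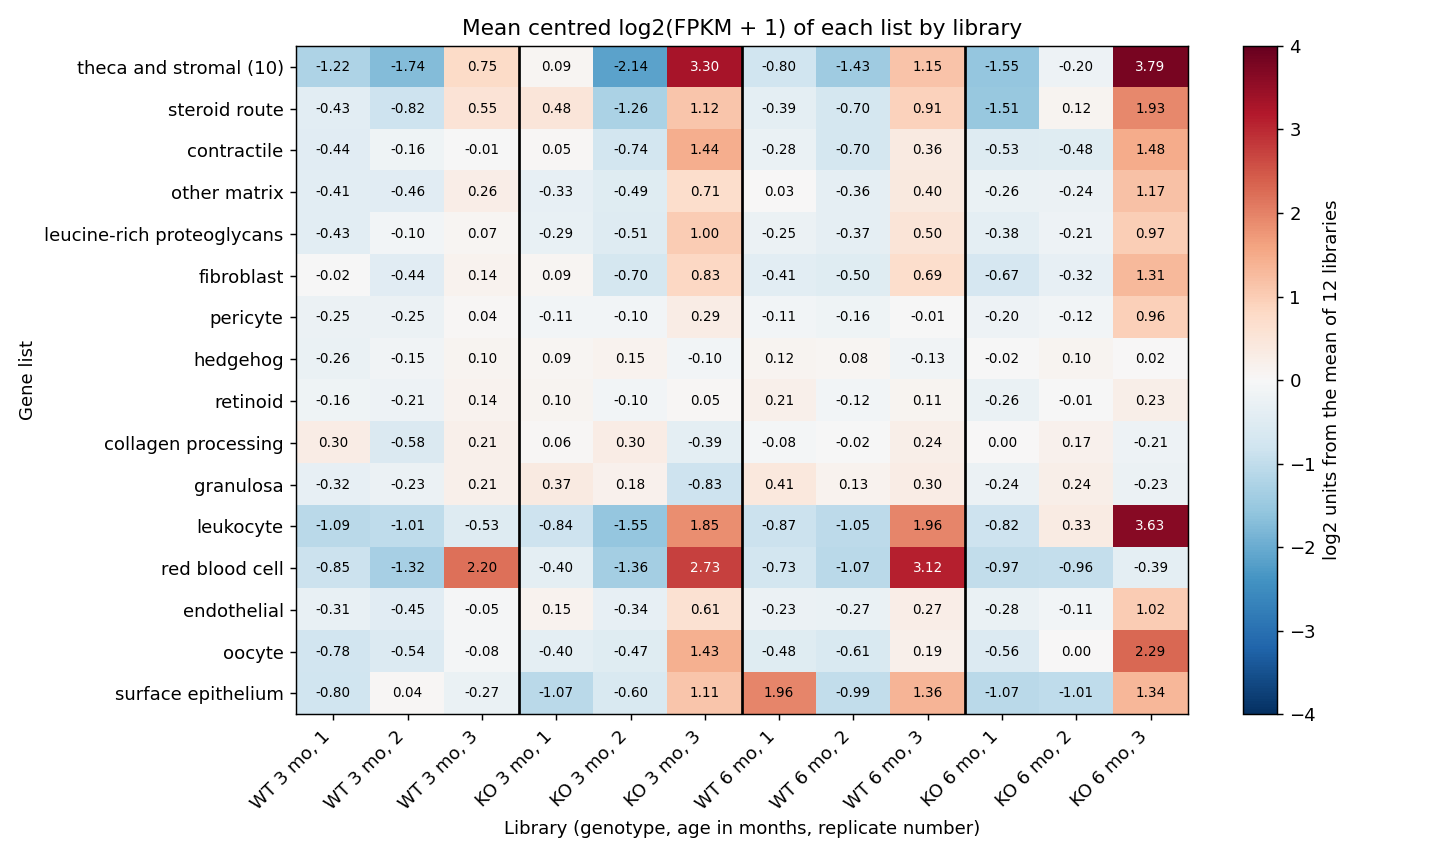
Mean over the genes of each list (rows) of log2(FPKM + 1) centred on the gene's mean over the 12 libraries, by library (columns), so 0 is the average library. The theca and stromal row stands at 3.30 and 3.79 in library 3 of the 3-month and 6-month KO groups, and the leukocyte row at 1.85 and 3.63 there and 1.96 in 6-month WT library 3.

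Genes with a profile like that of 3 markers were found by the root-mean-square distance between log2(FPKM + 1) profiles, each centred on its mean over the 12 libraries, among 10406 tested genes. Nearest to Cyp17a1, whose own profile had a root-mean-square size of 3.22, were Igfbp7 (distance 1.14), Akr1b7 (1.17), Cyp11a1 (1.29), Adh1 (1.34) and Efhd1 (1.5), and the nearest other marker was Tagln (1.43). Akr1b7, an aldo-keto reductase of steroidogenic tissue, was at 769 and 1407 FPKM in the KO libraries numbered 3 and at 0 to 27.2 FPKM elsewhere. Among the nearest to Acta2 (size 2.4) were Myl9 (0.36), Star (0.65), Actg2 (0.68) and Hao2 (0.79), with Tagln at 0.72. Star, which carries cholesterol into mitochondria, was at 426 and 403 FPKM in the KO libraries numbered 3, 100.0 FPKM in 6-month WT library 3 and 0.674 to 38.1 FPKM in the rest. Nearest to Col1a2 (size 0.84) were Myzap (0.24), Fam198b (0.27), Sorbs2 (0.28), Dpep2 (0.34) and Col4a2 (0.34), the last a basement membrane collagen, with Col1a1 at 0.49. A small distance for Col1a2 partly follows from its small range. All 3 markers were highest in library 3 of both KO groups, so these libraries weigh most in each profile of 12 points.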

How the data were processed

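The deposited table holds FPKM values per gene that the authors made from 75 bp paired reads. The submitters' processing notes name GRCm38/mm10, Cufflinks 1.2.1, TopHat2 2.0.10, Bowtie2 2.1.0, SAMtools 0.1.18, FastQC and cutadapt. The labels' protocols name Smart-Seq2 for the cDNA. Counts and the annotation behind the table were not used here. FPKM is a share of each library, so a few abundant entries lower all others. Exact zeros may be failed estimates and are written as listed at 0.

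The 10 markers and the other gene lists were chosen with earlier results of these data known. Of 23997 rows, 4 with a repeated, date-like name were left out. Genes with at least 1 FPKM in at least 3 libraries (11194) were tested as log2(FPKM + 1) with limma 3.58.1 in R 4.3.3, with 4 group means over 12 libraries, eBayes with trend (8 residual and 3.9 prior degrees of freedom), 2-sided tests and Benjamini-Hochberg adjustment over all tested genes at 0.05. A difference on this scale understates the change of low genes. The fit was tested on simulated data. Alternatives were pseudocounts of 0.1 and 5, no filter or one at 5 FPKM, scaling without small RNAs or to equal medians, only the libraries compared, no trend, a replicate block, and libraries left out.

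The naming rule took, besides the 10 markers and Clpp, up to 3 genes of each list by highest mean FPKM and the 5 nearest profiles of Cyp17a1, Col1a2 and Acta2, passing over predicted and clone-named genes. A result that this rule names is not reported here. Coordinates and shared stretches are from GENCODE M21, promoter sequences from RefSeq. The labels do not tie equal replicate numbers to an animal, litter or day. Deviations of equal numbers from their group means correlated at 0.16 to 0.47 between the 6-month groups and at 0.11 to 0.65 between the KO groups. They correlated at -0.02 to 0.21 between the 3-month groups and at 0.03 to 0.28 between the WT groups. The highest values, 0.47 and 0.65, were for number 3, and unequal numbers were not compared. These correlations therefore cannot show pairing. All values given are from the fit without the block unless the block is named.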

Additional observations from a re-analysis of the deposited data

How the results depend on the processing

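No marker passed the adjusted threshold in any of the 6 comparisons under any alternative run, and of 412 alternative values of 19 KO minus WT differences 382 kept their direction. Many of these values could not turn, so this count overstates stability. The block, the trend, the filter and the libraries of the other age leave a difference fitted within a single age unchanged. The smallest adjusted p was 0.409. The 30 that turned sign were as follows, on the log2 scale. With a pseudocount of 0.1, Col1a2 was -0.26 and Lum -0.18 at 3 months, and Col3a1 -0.48 at 6 months. With the 3 libraries high in leukocyte markers left out, the 3-month values were -0.63 for Col1a2, -0.65 for Col3a1, -0.76 for Cyp17a1, -0.01 for Dcn and -1.0 for Lum, and the 6-month values -0.51 for Col3a1, -0.32 for Cyp17a1 and -0.19 for Dcn. Leaving out each library in turn gave at 3 months -0.63 to 0.66 for Col1a2, -0.65 to 1.31 for Col3a1, -0.76 to 4.04 for Cyp17a1, -0.01 to 3.31 for Dcn and -1.0 to 1.5 for Lum, each lowest without KO library 3. The highest values came without KO library 2 for Cyp17a1 and Dcn, without WT library 3 for Col1a2 and Col3a1 and without KO library 1 for Lum. At 6 months it gave -0.89 to 2.58 for Acta2, -0.55 to 0.48 for Col1a2, -1.47 to 1.10 for Col3a1, -0.69 to 3.98 for Cyp17a1, -1.43 to 1.99 for Dcn, -0.94 to 1.74 for Lum and -0.67 to 2.37 for Tagln, each again lowest without KO library 3, and highest without WT library 3 for Col1a2 and Tagln and without KO library 1 for the other 5. With the replicate number as a block the differences were the same and the standard errors smaller (Insl3 at 6 months 3.23, SE 0.97, unadjusted p = 0.00685 by limma, adjusted p = 1.0), 0 markers passed, and no call over all genes changed in number.

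Over all genes the count of calls was 0 to 10 at 3 months (1 as reported), 2 to 3 at 6 months (3), 1 to 6 averaged (2), 0 to 4 for the interaction (1), 1 to 10 for age in WT (1) and 2 to 4 for age in KO (2). The values of 10, 6, 4 and 10 came without 3-month WT library 3, and the 4 for age in KO with only the libraries compared. Values under 1 FPKM rest on few fragments, and no counting error can be given for them.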
